A study of Mus musculus with 6 samples.

Results

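The cytosolic ribosomal protein genes encode the protein components of the ribosome that works in the cytoplasm. They were taken as all genes whose symbol is Rpl or Rps with a number and optional letters or a paralogue suffix, together with Rpsa, Rplp0, Rplp1 and Rplp2, and without the Rps6k kinases and pseudogene symbols. On the array 61 of 19938 genes with a symbol of their own met this rule, 38 of the large subunit (Rpl) and 23 of the small subunit (Rps), and each was represented by its probe set of the highest mean signal over the 6 arrays. Rps19bp1 and Rps23rg1 were left out because their suffix names a binding protein and a retrogene. A further 20 ribosomal protein symbols, among them Rpl3, Rpl11 and Rpl13a, appeared only on probe sets annotated with several genes and were not used. RNA labelled as aorta was measured on 6 Affymetrix arrays, 3 from Trail knockout mice (Trail-/-, obtained from Amgen) and 3 from wild-type mice. Strain C57Bl6/J and an age of 6 weeks are given for both groups, with no treatment. Nothing used here gives the sex of the mice, or says whether animals were pooled or each array held another animal, so the p-values reflect differences among these arrays, which may be technical.

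Each ribosome carries 1 copy of most of these proteins, so their genes are usually expressed in step and in nearly all cells. Their mRNAs begin with a C followed by a run of C and T, the 5′ terminal oligopyrimidine (TOP) tract, through which mTOR signalling and the protein Larp1 control how strongly they are translated. A few ribosomal proteins have paralogues of restricted expression. Rpl3l takes the place of Rpl3 in striated muscle, Rpl10l and Rpl39l are known from the testis, and Rps27l is induced by p53.

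Start sites are shown first because the shared TOP tract is what this gene family is known for, and 5 of the 10 genes with the tract at their annotated start are given. The paralogues Rpl3l, Rps27l and Rpl7l1 are added because their values are described below. Most members with an entry also lack the tract at the annotated start, and the paralogue Rpl32l has it, so the lines show no contrast between paralogues and the family. The sequences are RefSeq promoter entries on GRCm38.p6, from 10 bases before to 20 bases after the annotated start, with capitals for a C at the start and the unbroken C and T run that follows it. Of the genes with several annotated starts, the one farthest 5′ is given. The small subunit gene Rps6 starts within chr4:86857348-86857377 (minus strand), Rps18 within chr17:33955646-33955675 (minus), Rps10 within chr17:27635225-27635254 (minus), Rpl28 within chr7:4792955-4792984 (plus) and Rpl38 within chr11:114668570-114668599 (plus). The paralogues Rpl3l, Rps27l and Rpl7l1 start within chr17:24727816-24727845 (plus), chr9:66946076-66946105 (plus) and chr17:46782637-46782666 (minus).
Rps6: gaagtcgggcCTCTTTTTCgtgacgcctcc
Rps18: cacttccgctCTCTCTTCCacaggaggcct
Rps10: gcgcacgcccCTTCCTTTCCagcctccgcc
Rpl28: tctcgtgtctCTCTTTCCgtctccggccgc
Rpl38: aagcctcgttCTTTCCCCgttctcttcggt
Rpl3l: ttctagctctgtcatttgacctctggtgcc
Rps27l: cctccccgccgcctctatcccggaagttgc
Rpl7l1: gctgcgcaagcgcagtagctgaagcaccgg

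RefSeq held 58 promoter entries of 300 bases for 49 of the 61 genes. Rpl21, Rpl23a, Rpl29, Rpl30, Rpl36, Rpl7, Rpl8, Rplp1, Rps14, Rps20, Rps29 and Rps4l had none. A C at the annotated start followed by at least 4 of C or T was found in 10 of the 58 entries (17.2%) and in 823 of 32851 promoters of all genes (2.51%). A run of at least 10 C or T on the sense strand, anywhere from 40 bases before to 40 bases after the start, was found in 26 entries (44.8%) and in 14.3% of all promoters. CTTCCG, the core of sites for ETS factors, was found on either strand in 36 entries (62.1%) against 16.9% of all. TATAAA was found in 6 entries (10.3%) against 13.6%. TCTCGCGA, read on both strands, was found in 11 entries (19.0%) of 10 genes (Rpl10a, Rpl12, Rpl26, Rpl27a, Rpl7a, Rps15a, Rps19, Rps28, Rps3a1 and Rps6) and in 327 of all promoters (0.995%). A match describes letters in the window and is not evidence of a bound factor.

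The TCTCGCGA letters are shown in 4 of these genes because they were the rarest motif over all promoters. Each line gives the 60 bases before the annotated start, with TCTCGCGA or its reverse complement TCGCGAGA in capitals. The 2 forms overlap in Rps6 and Rpl26, where they read TCTCGCGAGA. The windows are chr4:86857368-86857427 (minus) for Rps6, chr7:24884532-24884591 (plus) for Rps19, chr11:68901506-68901565 (plus) for Rpl26 and chr7:109519135-109519194 (plus) for Rpl27a.
Rps6: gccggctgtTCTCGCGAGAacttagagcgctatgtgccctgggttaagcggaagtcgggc
Rps19: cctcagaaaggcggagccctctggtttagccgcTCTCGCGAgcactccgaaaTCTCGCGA
Rpl26: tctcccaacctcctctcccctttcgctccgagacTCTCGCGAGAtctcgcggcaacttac
Rpl27a: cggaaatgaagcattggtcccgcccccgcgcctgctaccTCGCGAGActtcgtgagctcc

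The array labelled wild type 1 stood apart from the other 5, and the differences between the genotypes below are given with and without it. Its Pearson r with the others over the annotated probe sets was 0.899 to 0.907, against 0.974 to 0.996 among the other 5. Skeletal muscle markers were lowest on it for 21 of 21 genes. The log2 of their summed signal was 11.15 there, 15.95 and 16.18 on wild type 2 and 3, and 15.64 to 16.14 in the knockout. Of the squamous epithelium markers 19 of 19 were below every other array there (18 over 2-fold), with a log2 summed signal of 9.73 against 15.45 to 15.67. Brown fat markers were above every other array for 13 of 14 genes, at 14.63 against 11.54 to 11.998. Vascular smooth muscle markers had a median deviation of -0.24 there (quartiles -1.15 and 0.08), with 6 of 14 lowest and 2 highest on that array. Endothelial markers had a median deviation of 1.36, with 13 of 13 highest there. Nerve and Schwann markers had a median of 1.35, with 7 of 10 highest and 2 lowest there. Tnfsf10, the gene of Trail, gave 8.42 on wild type 1 and 4.09 to 5.02 on the other 5 arrays, so it did not set wild type 2 and 3 apart from the knockout. Stomach epithelium markers had a list median of 11.64 on knockout 2 and of at most 6.55 elsewhere, and lung epithelium markers 7.28 on knockout 1 and at most 5.67 elsewhere. The part of these tissues in the results below was not tested, and in bulk RNA fewer cells of a type cannot be told apart from less RNA per cell.

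Nearly all ribosomal protein genes were lowest on the array labelled wild type 1. There 51 of 61 lay below all 5 other arrays, where 31.6% of the 14046 probe sets tested did so, and 4 lay above all 5, where 37.9% of the probe sets did. Of the 58 genes bright enough to be among the probe sets tested, 50 lay below and 2 above all others. Rplp2 and Rpl39l, also above all others, were too dim to be tested. The median over the 61 genes was 0.38 below the mean of the other arrays (-0.38, quartiles -0.51 and -0.21, log2), and over all probe sets tested it was 0.04. Large subunit genes had a median of -0.36 with 31 of 38 lowest there, and small subunit genes a median of -0.39 with 20 of 23 lowest there. The 10 genes that were not lowest on that array were Rpl19, Rpl24, Rpl30, Rpl36, Rpl39l, Rpl7l1, Rplp2, Rps19, Rps27l and Rps4l. Over 2-fold below all others there was 1 gene, Rpl3l, against 7.41% of the probe sets tested, and over 2-fold above all others were 0 genes, against 6.27%. A single array gives no test, and these values describe that library.

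**Figure D1:**
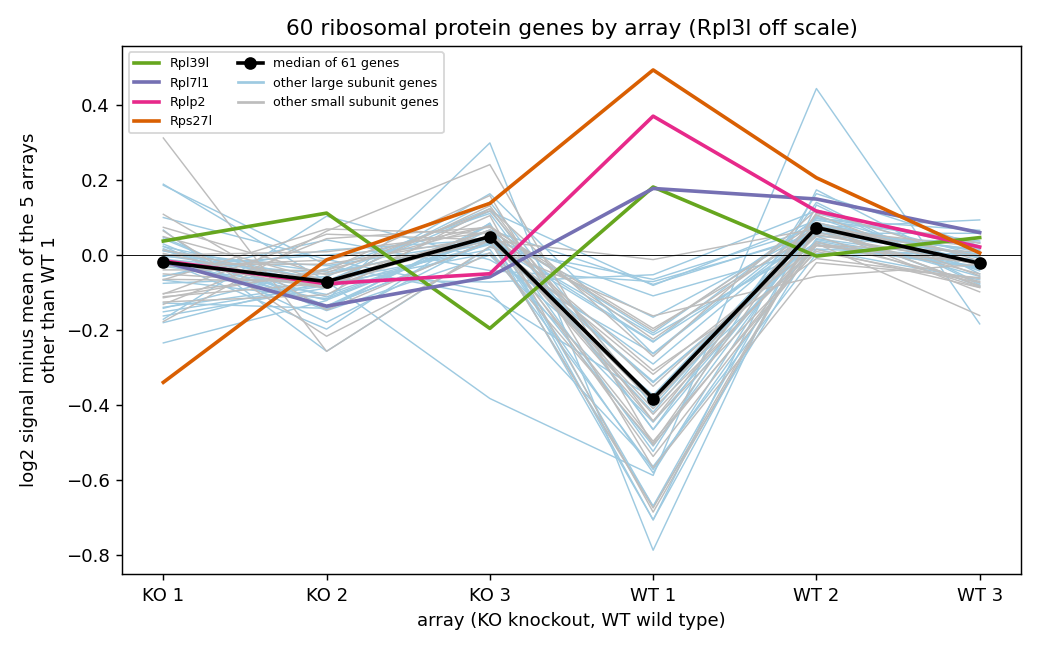
Log2 signal of 60 ribosomal protein genes on each array, minus the gene's mean over the 5 arrays other than wild type 1 (Rpl3l, at -3.58 on wild type 1, is off the scale). Each line joins the values of 1 gene, and the black line is the median over 61 genes, -0.38 on wild type 1. Coloured lines are the 4 genes above all other arrays on wild type 1. Of these, Rplp2 and Rpl39l were too dim to be tested.

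Away from that array the levels varied less. The range from the lowest to the highest array had a median of 0.48 over the 61 genes on 6 arrays, and of 0.21 on the 5 arrays without wild type 1. Over all probe sets tested these medians were 0.59 and 0.36. Those were dimmer, with array medians of 7.50 to 7.58 against 10.47 to 10.99 for the 61 genes, and ranges were not compared at like signal. On the 5 arrays the median range was 0.27 for the 22 members with 1 probe set. In the companion lists described below it ran from 0.25 for initiation factors and 0.26 for elongation factors and TOP partners to 0.37 for RNA polymerase I factors. On the 5 arrays 1 of 61 genes, Rpl3l, spanned more than 1 log2 unit, against 4.63% of the probe sets. Rpl12, Rps19, Rps27l and Rpl14 followed with ranges of 0.83, 0.57, 0.55 and 0.53, and of these Rpl12 was dim (mean 6.40).

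The remaining small differences among the 5 arrays had an order, which all probe sets tested shared in part. Wild type 2 was the highest of the 5 for 26 genes (29.1% of all probe sets tested had their highest value there), and knockout 3 for 23 (16.5% of probe sets). Knockout 2 was the lowest of the 5 for 28 genes (35.8% of probe sets), and knockout 1 for 18 (19.7%). Large subunit genes were highest on wild type 2 in 21 of 38 cases and lowest on knockout 2 in 21 of 38. Small subunit genes were highest on knockout 3 in 13 of 23 cases. The medians of the 61 genes, relative to the mean of the 5 arrays, were -0.02, -0.07 and 0.05 on knockout 1, 2 and 3, and 0.07 and -0.02 on wild type 2 and 3. Over all probe sets tested they were -0.01, -0.04 and 0.008 on the knockout arrays, and 0.04 and -0.005 on wild type 2 and 3. By these medians the highest and the lowest array were the same in both sets, and that part of the order is not particular to these genes. Small subunit genes taken alone had their highest median on knockout 3, at 0.07 against 0.06 on wild type 2.

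Arrays labelled knockout were compared with those labelled wild type, all from RNA labelled as aorta, and none of the ribosomal protein genes passed. In limma 0 of the 58 genes above the signal filter had an adjusted p under 0.05, as did 0 of all 14046 probe sets (0.0%), and 0 of the 58 had an unadjusted p under 0.05, against 14 probe sets higher (0.0997%) and 75 lower (0.534%) in the knockout. Rpl10l, Rpl39l and Rplp2 lay below the filter, which left out the dimmest 40% of annotated probe sets, and were not tested. The limma adjusted p of the 58 ran from 0.921 to 0.985. Every one of the 58 intervals included 0, with a median half-width of 0.37 on 6 arrays and of 0.24 without wild type 1. These intervals are for single genes and are not adjusted for the number of probe sets tested. Their half-width is thus not the smallest difference that could have passed, which would be larger and was not estimated.

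The sign of the differences turned with 1 array. Knockout minus wild type was above 0 for 50 of 58 genes on 6 arrays (43.5% of all probe sets tested), and for 15 of 58 without wild type 1 (41.6% of probe sets). The median over the 61 genes was 0.10 and became -0.05 without that array, while over all probe sets tested it was -0.03 in both cases. Small subunit genes had medians of 0.13 and -0.004 (21 of 23 above 0 with that array, 11 without), and large subunit genes 0.06 and -0.06 (29 of 38 above 0 with it, 4 without). Centring each array on its median gave 42 above and 16 below 0 on 6 arrays in place of 50 and 8, and weighting the arrays by their fit gave 26 above and 32 below. Without wild type 1, 0 of the 58 passed, 0 had an unadjusted p under 0.05 (0.32% of probe sets were higher and 1.22% lower at that level), and the lowest limma adjusted p was 0.996.

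**Figure D2:**
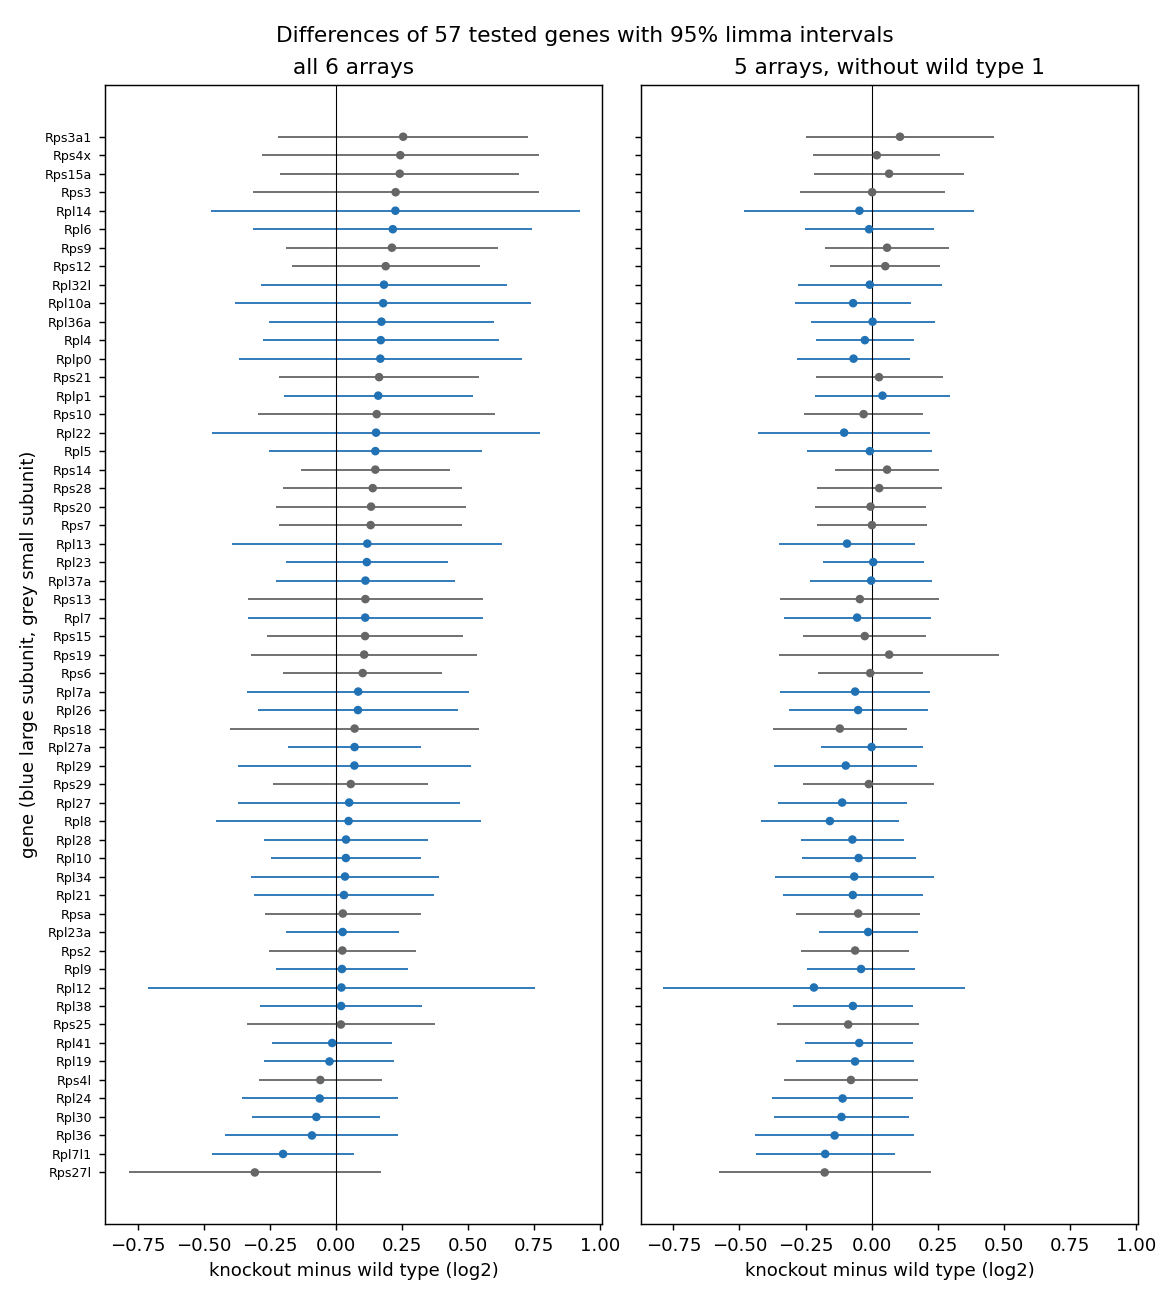
Knockout minus wild type (log2) with 95% limma intervals for 57 tested ribosomal protein genes (Rpl3l, with a difference of 0.78 and an SE of 1.13, is left out), on all 6 arrays at left and without wild type 1 at right. Points stand mostly right of 0 at left and near or left of 0 at right, and every interval crosses 0.

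Among the paralogues, Rpl3l of striated muscle varied most. It gave 8.28, 7.47 and 8.77 on knockout 1, 2 and 3, and 4.80, 8.59 and 8.79 on wild type 1, 2 and 3. Wild type 1 lay below the signal filter level of 5.86 and below every other array, knockout 2 was the lowest of the remaining 5, and the groups overlapped. The group means were 8.17 ± 0.66 (SD, n = 3) in the knockout and 7.39 ± 2.25 (SD, n = 3) in the wild type. Their difference was 0.78 (SE 1.13, limma adjusted p = 0.921) with that array and -0.52 (SE 0.35, limma adjusted p = 0.996) without it. The skeletal muscle markers had list medians of 11.09, 10.80 and 11.57 on the knockout arrays and of 5.71, 11.23 and 11.47 on the wild-type arrays, so they were lowest on the same 2 arrays as Rpl3l. Eef1a2, the elongation factor 1 alpha form of muscle and neurons, gave 10.92, 10.64 and 11.13 in the knockout and 8.61, 10.90 and 11.17 in the wild type, again lowest on these 2 arrays. The common form Eef1a1 lay between 13.22 and 13.33 on all 6.

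A pair of further paralogues, Rps27l and Rpl7l1, ran against the family on wild type 1. Rps27l, a p53-induced form of Rps27, gave 8.02, 8.35 and 8.50 in the knockout and 8.86, 8.57 and 8.37 in the wild type. It was highest on wild type 1 and lowest on knockout 1, with overlapping groups, and differed by -0.31 (SE 0.19, limma adjusted p = 0.921), or by -0.18 without wild type 1. Rpl7l1, a relative of Rpl7 that acts in the assembly of the large subunit, gave 8.68, 8.56 and 8.64 in the knockout and 8.87, 8.84 and 8.76 in the wild type. All 3 knockout arrays lay below all 3 wild-type arrays, which held for 1 of the 58 tested genes in this direction and for 4.29% of all probe sets. Its means were 8.62 ± 0.06 (SD, n = 3) and 8.82 ± 0.06 (SD, n = 3), a difference of -0.20 (SE 0.11, limma adjusted p = 0.921), and -0.18 without wild type 1. Rpl7 itself gave 11.10, 11.20 and 11.35 against 10.77, 11.38 and 11.16, lowest on wild type 1 like most of the family.

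The other paralogues did not separate the groups. Rps4l, a relative of Rps4x, stayed between 7.10 and 7.24 on the 6 arrays. On wild type 1 this probe set was at -0.01 from the mean of the others. The other probe set of Rps4l, nearly as bright (mean 7.11 against 7.17), was at 0.18. Rps4x, the X-linked partner of Rps4l, gave 11.52, 11.42 and 11.62 in the knockout and 10.83, 11.58 and 11.41 in the wild type, with wild type 1 at 0.69 below the mean of the others (-0.69). Rpl32l gave 7.95, 7.84 and 7.75 against 7.29, 7.85 and 7.85. The groups overlapped for each of these. The testis paralogue Rpl39l was dim, with values between 3.41 and 3.78, and Rpl10l lay between 5.64 and 5.94, both too low to enter the test. Rpl10, the partner of Rpl10l and a protein near the peptidyl transferase centre, gave 12.41, 12.23 and 12.40 against 12.14, 12.47 and 12.33.

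**Figure D3:**
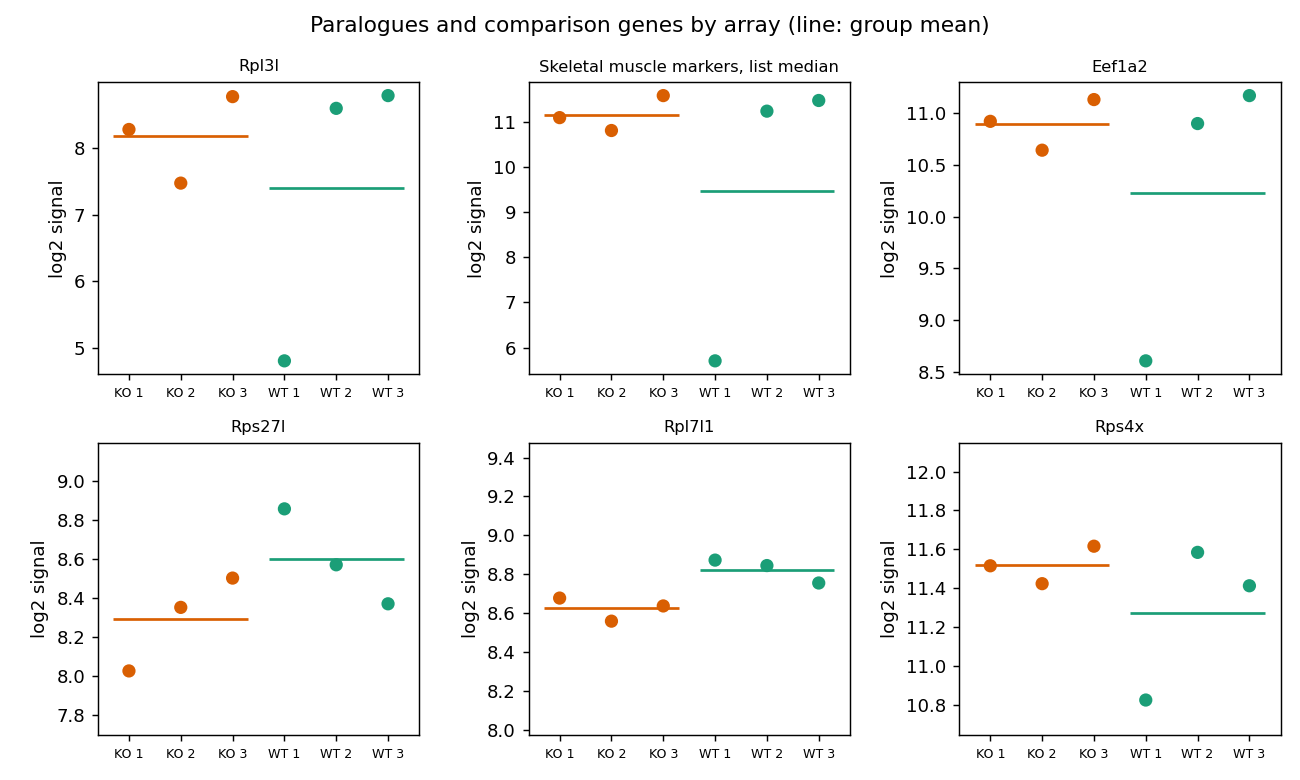
Log2 signal on each array of Rpl3l, the skeletal muscle marker list (median of 21 genes), Eef1a2, Rps27l, Rpl7l1 and Rps4x, with knockout in orange, wild type in green and lines at the group means. Rpl3l, the muscle list and Eef1a2 are lowest on wild type 1 and next lowest on knockout 2, Rps27l and Rpl7l1 are highest on wild type 1, and the vertical scale differs between panels.

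The stalk is where elongation factors dock. Rplp0, which holds the stalk to the ribosome, gave 12.16, 12.003 and 12.18 in the knockout and 11.47, 12.25 and 12.12 in the wild type. Rplp1, which pairs with Rplp2 on the stalk, gave 12.22, 12.003 and 11.92 against 11.65, 12.04 and 11.96. Both were lowest on wild type 1, and their groups overlapped. Rplp2 gave 5.49, 5.42 and 5.45 against 5.87, 5.62 and 5.52, values too near or below the signal filter of 5.86 to be read as a contrast with its partners. Rpl12, which sits at the base of the stalk, gave 6.69, 6.43 and 6.12 against 5.91, 6.95 and 6.32, the widest range on the 5 arrays after Rpl3l. It was read on 1 probe set with a mean of 6.40, not far above the filter, so its range may partly reflect low signal, which was not tested. Rplp1, chosen here after its values were seen, differed by 0.16 (SE 0.14) and by 0.04 without wild type 1. Rplp0 differed by 0.17 (SE 0.22, limma adjusted p = 0.921) and by -0.07 without wild type 1, and Rpl12 by 0.02 (SE 0.30) and by -0.22. None passed.

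Among the other large subunit genes Rpl14, Rpl22 and Rpl10a lay farthest below the mean of the other arrays on wild type 1, after Rpl3l, at -0.79, -0.71 and -0.71. Rpl14 gave 7.63, 7.75 and 8.17 in the knockout and 7.08, 8.001 and 7.79 in the wild type. Rpl22, whose protein is known for its part in T cell development, gave 9.21, 9.02 and 9.31 against 8.52, 9.40 and 9.17. Rpl10a gave 11.52, 11.42 and 11.59 against 10.83, 11.62 and 11.53. Wild type 1 was the lowest array for each, and the 5 other arrays of both groups overlapped. Rpl5, a partner of the 5S RNA that can bind the p53 regulator Mdm2, gave 11.51, 11.52 and 11.71 against 11.12, 11.65 and 11.53. Its difference was 0.15 (SE 0.16, limma adjusted p = 0.921) and -0.01 without wild type 1.

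Several large subunit genes were nearly level over the 6 arrays. Rpl41, which encodes a very short peptide, lay between 11.21 and 11.33, Rpl23a, at the exit of the peptide tunnel, between 11.61 and 11.77, and Rpl30 between 7.17 and 7.36. The ranges of 0.12, 0.15 and 0.19, together with 0.14 for Rps4l, were the smallest of the family on the chosen probe sets. Over the 13 probe sets of Rpl23a the deviation on wild type 1 ran from -0.27 to -0.11, the last on the chosen one. Rpl36 gave 10.48, 10.15 and 10.43 in the knockout and 10.35, 10.48 and 10.51 in the wild type, lowest on knockout 2. Rpl24, which forms a bridge between the subunits, gave 10.95, 11.06 and 11.24 against 11.05, 11.22 and 11.17, lowest on knockout 1. Rpl30, Rpl36 and Rpl24 were below 0 by 0.06 to 0.09 in the comparison of the genotypes (-0.07, -0.09 and -0.06, and -0.11, -0.14 and -0.11 without wild type 1), and none passed. The groups of Rpl29, Rpl30, Rpl36 and Rpl7l1 did not overlap on the 5 arrays without wild type 1, with the knockout lower, which held for 8.45% of all probe sets tested.

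The small subunit genes named most often in work on the ribosome gave the following values. Rps6, the substrate of the S6 kinases downstream of mTOR, gave 12.01, 12.17 and 12.16 in the knockout and 11.80, 12.14 and 12.10 in the wild type. Rps3, at the entry of the mRNA channel, gave 11.02, 10.76 and 10.95 against 10.23, 10.99 and 10.83. For both genes wild type 1 was lowest and the other 5 arrays overlapped between the groups. Rps6 differed by 0.10 (SE 0.12) with that array and by -0.01 without it, and Rps3 by 0.23 (SE 0.22) and by 0.00. Rpsa, which also serves as a laminin receptor, gave 10.75, 10.72 and 10.87 against 10.60, 10.89 and 10.77, a difference of 0.03 (SE 0.12), or -0.05 without wild type 1. Rps19, often mutated in Diamond-Blackfan anaemia, gave 9.83, 9.26 and 9.54 against 9.36, 9.46 and 9.49. It was highest on knockout 1 and lowest on knockout 2, so the spread in the knockout (SD 0.28) was wider than in the wild type (SD 0.07), and its difference was 0.11 (SE 0.17), or 0.07 without wild type 1. The limma adjusted p of these 4 genes was at least 0.921.

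The 6 ribosomal protein genes with the lowest p among those higher in the knockout were all of the small subunit, and none passed. Rps14 gave 11.32, 11.33 and 11.38 in the knockout and 11.01, 11.31 and 11.26 in the wild type. It was the 1 gene of 58 with all knockout arrays above all wild-type arrays, where 1.31% of probe sets were (4.13% without wild type 1, where it was again the 1 gene), and its margin over wild type 2 was under 0.01. Its difference was 0.15 (SE 0.11, limma adjusted p = 0.921) and 0.06 (SE 0.08) without wild type 1. The groups of Rps3a1, Rps15a, Rps12, Rps9 and Rps4x overlapped. Rps3a1 gave 9.94, 10.18 and 10.36 against 9.61, 10.15 and 9.96, the largest difference above 0 in the family after Rpl3l at 0.25 (SE 0.19), and 0.11 without wild type 1. Rps15a gave 8.15, 8.14 and 8.34 against 7.62, 8.16 and 8.12, Rps12 gave 11.58, 11.71 and 11.70 against 11.20, 11.65 and 11.57, and Rps9 gave 10.67, 10.55 and 10.65 against 10.10, 10.61 and 10.51. Their differences of 0.24, 0.19 and 0.21 became 0.07, 0.05 and 0.06 without that array.

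The 27 genes outside the naming rule, Rplp1 included, had the following ranges. Of 17 large subunit genes 16 were lowest on wild type 1, with deviations there from -0.67 to -0.08, and of 10 small subunit genes all 10 were, from -0.54 to -0.20. Knockout minus wild type ran from -0.02 to 0.22 and from 0.02 to 0.16 in these sets on 6 arrays, and from -0.16 to 0.04 and from -0.12 to 0.03 without wild type 1.

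Many ribosomal protein genes have near-identical processed copies in the genome, and the array held 217 probe sets for the 61 genes, so signals of a gene and its copies cannot be fully told apart. A single probe set measured 22 genes, and the most for a gene was 14, for Rps12. The probe sets of a gene are not independent measurements, so their agreement is no separate support. The 3 of Rpl41, for example, gave the same mean signal (11.27) and the same difference (-0.01). Of the 39 genes with several probe sets, 36 had one sign of difference between the genotypes on all of them. Rpl27a, Rpl9 and Rps25 had both signs, with 1 probe set of 9, 8 and 6 below 0 and differences of at most 0.09 in size. The chosen probe sets of Rpl27a gave 11.61, 11.68 and 11.71 against 11.46, 11.70 and 11.64, those of Rpl9 12.05, 11.93 and 12.09 against 11.88, 12.11 and 12.02, and those of Rps25 11.10, 11.12 and 11.35 against 10.95, 11.34 and 11.21. On wild type 1, 212 of the 217 probe sets lay below the mean of the other arrays (46.8% of all probe sets tested did) and 189 below all others. The deviation there had a median of -0.48 in the 16 genes with 1 probe set, -0.40 in the 21 with 2 to 4, and -0.27 in the 17 with over 4, paralogues left aside. Across these 54 genes, which are not independent replicates and share each library, the deviation had a Pearson r of -0.09 and a Spearman rho of 0.12 with the mean signal, of opposite sign and both weak. With the number of probe sets the Pearson r was 0.23 and the Spearman rho 0.29.

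Genes that work with the ribosome were read from lists of their own. Elongation factors and other TOP partners, of which 11 of 17 had a probe set of their own, had the companion median nearest to the ribosomal proteins on wild type 1, with a value of -0.23 and 8 of 11 lowest there. Eef2, the translocase, was at -0.21, Npm1, a nucleolar chaperone, at -0.61, and Eef1a1, Tpt1 and Pabpc1 at -0.03, -0.04 and 0.05. Translation initiation factors had a median of -0.12 (9 of 24 lowest), ribosome biogenesis genes -0.11 (16 of 38) and RNA polymerase I factors -0.13 (8 of 15). The mTOR and TOP control list had a median of 0.01 with 8 of 23 lowest and 9 highest, and Mtor itself gave 9.44 on wild type 1 and 7.76 to 8.25 elsewhere.

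Mitochondrial ribosomal protein genes, whose products build the separate ribosome of the mitochondrion, stood on the other side. On wild type 1, 72 of 77 were above all other arrays and 0 of 77 below all others, with a median of 0.69 (quartiles 0.49 and 0.88) against -0.38 for the cytosolic genes. The list medians were 7.74, 7.70 and 7.91 on the knockout arrays and 8.66, 7.89 and 7.79 on the wild-type arrays. Mrpl39 gave 10.11 on wild type 1 and 8.74 to 8.81 on the other 5 arrays, and Mrps36 had the largest deviation, 1.55. Mrpl14 was among the few that did not follow, at -0.08.

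**Figure D4:**
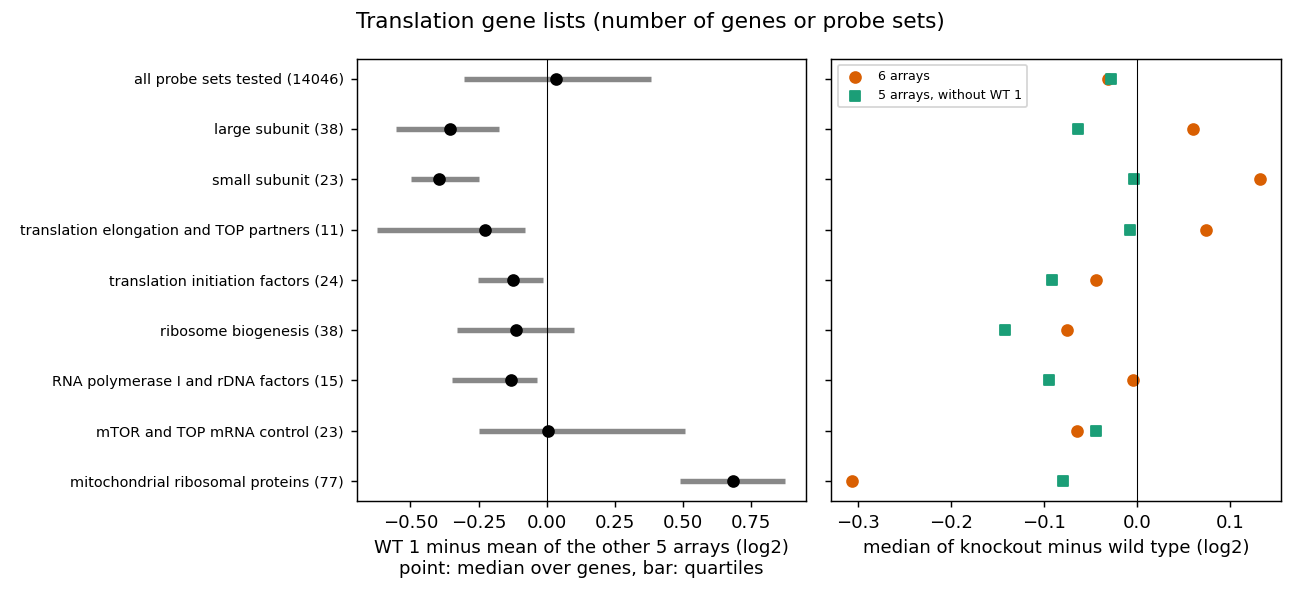
Left, wild type 1 minus the mean of the other 5 arrays (log2) for lists of translation genes, with the median as a point and quartiles as a bar. Right, the median of knockout minus wild type on 6 arrays (orange) and without wild type 1 (green squares). Cytosolic ribosomal proteins of both subunits lie left of 0 on wild type 1 at -0.36 and -0.39, and mitochondrial ones right of 0 at 0.69.

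None of the companion genes passed between the genotypes. Median differences are given on 6 arrays and then without wild type 1. They were 0.07 and -0.01 for elongation factors and TOP partners, and -0.04 and -0.09 for initiation factors. Ribosome biogenesis genes had -0.08 and -0.14, and RNA polymerase I factors -0.005 and -0.10. The mTOR and TOP control list had -0.07 and -0.04, and mitochondrial ribosomal proteins -0.31 and -0.08. In limma 0 of 11, 0 of 24, 0 of 38, 0 of 15, 0 of 23 and 0 of 77 genes had an adjusted p under 0.05, and at an unadjusted p under 0.05 there was 1 gene, Ddit4, higher in the knockout (0.0997% of all probe sets tested were higher and 0.534% lower at that level). Without wild type 1 there were 3 such genes, Ddit4 higher and Tia1 and Bysl lower (0.32% and 1.22% of probe sets). Ddit4, an inhibitor of mTOR induced by stress, gave 7.71, 7.53 and 7.56 in the knockout and 7.01, 7.21 and 7.26 in the wild type, without overlap. Tia1, which binds TOP mRNAs under stress, gave 7.05, 6.82 and 6.92 against 7.07, 7.48 and 7.20, and Akt1s1, an inhibitor within mTOR complex 1, gave 8.25, 8.03 and 8.27 against 8.27, 8.43 and 8.47. The knockout arrays lay below the wild-type arrays for Tia1 and Akt1s1, with margins in the second decimal or below against wild type 1. In the mTOR and TOP control list the groups did not overlap for 1 gene higher and 3 lower of 23, against 1.31% and 4.29% of all probe sets tested. The differences were 0.44 (SE 0.12), -0.32 (SE 0.14) and -0.21 (SE 0.13), each with a limma adjusted p of 0.921, and 0.37, -0.42 and -0.27 without wild type 1.

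Further companion genes taken by their p stayed short of the threshold. Bysl, a factor of small subunit assembly, gave 6.89, 6.90 and 7.19 in the knockout and 7.20, 7.41 and 7.28 in the wild type, without overlap by a margin in the second decimal, a difference of -0.30 (SE 0.13), or -0.35 without wild type 1. Among initiation factors, Eif6, which keeps the subunits apart, and Eif3a were at 0.28 and 0.18 (-0.09 and 0.06 without wild type 1), and Eif3l and Eif4h at -0.22 and -0.11 (-0.09 and -0.10). Larp1, the TOP-binding protein, was at 0.19 (0.14). Eef1b2, an exchange factor of elongation, was at 0.21 (-0.004), with 9.41 on wild type 1 and at least 9.92 elsewhere. Tsr1, Nob1 and Utp4 of ribosome assembly were at 0.24, 0.13 and -0.23 (-0.04, -0.05 and -0.15 without wild type 1). Taf1c, Taf1a, Rrn3 and Polr1a of RNA polymerase I transcription were at 0.05, 0.06, -0.19 and -0.14 (0.02, -0.07, -0.19 and -0.19). Mrpl14, Mrps14 and Mrps26 were at 0.09, -0.35 and -0.31 (0.08, -0.20 and -0.18), and Pabpc1 and Eef1a2 at -0.02 and 0.67 (-0.01 and -0.14). The limma adjusted p of each on 6 arrays was at least 0.921.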

How the data were processed

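The authors deposited 1 column of log2 values per array for 35399 probe sets. The log base was read from the values, MAS5 is listed in the submitters' processing notes without saying for which step, and the background correction, summary and scaling were not stated. Per the labels' protocols, biotinylated cRNA was made from 6 ug of Trizol-extracted total RNA. Values were used as deposited.

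The platform annotation listed 23410 probe sets, 21789 with 1 gene symbol. Knockout and wild type were compared by a two-group fit in limma 3.58.1 under R 4.3.3, with variance trended on intensity and p-values adjusted by Benjamini-Hochberg (threshold 0.05) over the 14046 probe sets left after the lowest 40% by mean signal. The fit was tested on simulated data. Lists were read on 1 probe set per gene, with no set test. Alternatives changed the filter, scaling, probe set choice, moderation and array weights, used the replicate number as a block, or left arrays out. The labels state no pairing by the replicate numbers, and none was assumed in the main fit. Members, lists and alternatives were chosen with earlier results of these data known. Genes named were the paralogues with partners, the lowest p in each direction, the widest and narrowest ranges, those farthest off on wild type 1, a fixed list of known genes, genes with discordant probe sets and, per companion list, the lowest p in each direction; other genes were named after their values were seen. Only 6 arrays limit the precision.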

Additional observations from a re-analysis of the deposited data

How the results depend on the processing

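The count of 0 called genes, for the ribosomal proteins and for all probe sets, held in limma under each of 18 settings of filter, scaling, probe set choice, moderation, array weights, replicate block and arrays left out, with 27 to 611 probe sets at an unadjusted p under 0.05 and a lowest adjusted p of 0.767. The median difference of the ribosomal proteins, 0.10, ranged from -0.05 to 0.19 when 1 array was left out. It was -0.04 without wild type 1 and knockout 1, and -0.02 without wild type 1 and knockout 2. Their median on wild type 1, -0.38, was -0.30 after median centring, and -0.37 to -0.40 with another array left out. The median range, 0.48, ran from 0.21 to 0.48 with 1 array left out, and was 0.19 and 0.16 without wild type 1 and knockout 1 or 2. Restriction to genes with 1 probe set, without paralogues or above the filter, chosen after seeing the data, gave median differences of 0.10, 0.11 and 0.11. Correlations of deviations from the group means were 0.10, -0.23 and 0.20 for replicate numbers 1 to 3. With wild type 1 so far from the rest of its group, these cannot tell whether the numbers pair the samples. With the replicate number as a block 0 ribosomal proteins passed and the median difference was 0.10.

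Of 963 runs over 56 named genes, 88 turned the sign of an uncalled difference; the cause was not tested. Array weights, whose estimation stopped before its convergence tolerance was met, gave -0.47 for Rpl3l, -0.013 for Rpl7, -0.026 for Rpl14, -0.0060 for Rpl22, -0.024 for Rpl10a, -0.0054 for Rpl23a, -0.018 for Rps6, -0.017 for Rpsa, -0.064 for Rps25, -0.17 for Eef1a2, 0.036 for Pabpc1, 0.0092 for Eif4h and -0.0050 for Tsr1. Median centring gave -0.013 for Rpl12, -0.0088 for Rpl23a, -0.0081 for Rpsa, -0.011 for Rpl9 and -0.015 for Rps25, and quantile normalization gave 0.012 for Rpl41. Without wild type 1 and knockout 1 the differences were -0.080 for Rpl10, -0.058 for Rpl32l, -0.57 for Rpl3l, -0.36 for Rpl12, -0.12 for Rpl22, -0.075 for Rpl10a, -0.010 for Rpl23a, -0.090 for Rplp0, -0.052 for Rps3, -0.036 for Rpsa, -0.076 for Rps19, -0.054 for Rpl9, -0.044 for Rps25, -0.15 for Eef1a2, -0.14 for Eif6, -0.017 for Tsr1, -0.12 for Nob1, -0.023 for Taf1c and -0.093 for Taf1a. Without wild type 1 and knockout 2 they were -0.0024 for Rpl32l, -0.17 for Rpl3l, -0.048 for Rpl7, -0.23 for Rpl12, -0.026 for Rpl22, -0.024 for Rpl10a, -0.013 for Rplp0, -0.034 for Rps6, -0.022 for Rpsa, -0.0067 for Rpl27a, -0.053 for Rps25, -0.0085 for Eef1a2, -0.0069 for Eef1b2, 0.027 for Pabpc1, -0.0097 for Eif6, -0.0085 for Larp1, -0.021 for Tsr1 and -0.086 for Taf1a. With 1 array left out in turn, the ranges were -0.049 to 0.12 for Rpl10, -0.0067 to 0.28 for Rpl32l, -0.52 to 1.47 for Rpl3l, -0.055 to 0.25 for Rpl7, -0.15 to 0.0098 for Rpl36, -0.14 to 0.0071 for Rpl24, -0.046 to 0.41 for Rpl14, -0.22 to 0.30 for Rpl12, -0.10 to 0.34 for Rpl22, -0.070 to 0.33 for Rpl10a, -0.047 to 0.015 for Rpl41, -0.013 to 0.050 for Rpl23a, -0.068 to 0.32 for Rplp0, -0.0050 to 0.17 for Rps6, -0.051 to 0.094 for Rpsa, -0.0064 to 0.26 for Rpl5, -0.036 to 0.25 for Rps19, -0.040 to 0.077 for Rpl9, -0.088 to 0.11 for Rps25, -0.14 to 1.14 for Eef1a2, -0.0041 to 0.38 for Eef1b2, -0.058 to 0.012 for Pabpc1, -0.090 to 0.56 for Eif6, -0.035 to 0.39 for Tsr1, -0.051 to 0.22 for Nob1 and -0.069 to 0.16 for Taf1a, and 21 of the 32 turns in these runs came without wild type 1.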
